A study of Rattus norvegicus with 26 samples.

Results

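The genes of the cytosolic ribosome's own proteins were followed through spinal cord injury and transplantation of human cells. They were taken by name from the table of gene counts (Rpl or Rps with a number and an optional letter, plus Rpsa, Rplp0, Rplp1 and Rplp2, without the S6 kinases), and a gene was kept where every library held at least 100 of its counts. This gave 71 of 90 matching genes, among 32883 in the table and 17990 tested. Of the 71, 41 encode proteins of the large 60S subunit and 30 of the small 40S subunit, and they carry 68 distinct names, since some names stand on several rows.

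RNA sequencing was performed on 26 libraries of 5 mm spinal cord segments in 8 groups, all from wild type female Sprague-Dawley rats labelled as postnatal day 70. Intact (n = 4) comprised intact or sham rats. The other groups had a compression injury, made with an aneurysm clip of 60 g closed for 1 min on the thoracic cord. sub-SCI (n = 3) was taken 7 days later, when the other injured rats received an intrathecal injection of human umbilical cord mesenchymal stem cells (+MSC) or of phosphate-buffered saline (+PBS). These were taken 1, 2 or 4 weeks post transplantation (wpt), giving +PBS-1w (n = 3), +PBS-2w (n = 2), +PBS-4w (n = 4), +MSC-1w (n = 3), +MSC-2w (n = 3) and +MSC-4w (n = 4). The labels and the methods text disagree on which of the 2 wpt groups has fewer libraries, and the labels were followed. Per the study's methods, the rats also received the immunosuppressant cyclosporin A daily. Whether libraries of 1 group came from separate animals is stated in the methods as biological replicates, without animal numbers in the labels, so the p-values below measure the spread between these libraries.

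Ribosomal proteins and ribosomal RNA build the ribosome, and much of this assembly takes place in the nucleolus. Their mRNAs belong to the TOP class, named for a terminal oligopyrimidine tract (a run of C and T letters at the transcript's start) through which mTOR signaling controls their translation. Cells that grow, divide or take on a secretory state are known for high ribosomal protein mRNA, and in the injured cord such cells include activated microglia, infiltrating macrophages and fibroblasts. Because the segments hold many cell types, a change in a gene's level per cell and a change in the number of cells that use it cannot be told apart here.

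A few starts of these transcripts are shown, from some of the genes with the largest and the smallest changes below and from others. Each window holds 15 bases before and 15 bases from the annotated start, 5′ to 3′ on the gene's strand, taken from RefSeq on the rat build GRCr8, and capitals mark its longest unbroken run of C and T. Rplp0 (chr12:46718376-46718405, minus strand) encodes the stalk base protein. Rps2 (chr10:14251833-14251862, plus strand) and Rpl12 (chr3:36661925-36661954, plus strand) were among the genes with the largest rise after injury. Rpl34 (chr2:221962269-221962298, minus strand) has the longest run of all members with a window. The next 2 pairs are a ribosomal protein gene and its paralog, namely Rps27 (chr2:177964592-177964621, minus strand) with Rps27l (chr8:76443643-76443672, plus strand), and Rpl22 (chr5:168117946-168117975, plus strand) with Rpl22l1 (chr2:113683181-113683210, plus strand). Rpl7l1 (chr9:21695703-21695732, plus strand), a paralog of Rpl7, had the smallest change after injury.
Rplp0: gaccgcaccgcaCTTCTCTCgccaggcgtc
Rps2: CCTCTTCTTTTTCTTCgggaaaacacgtga
Rpl12: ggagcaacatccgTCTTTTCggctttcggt
Rpl34: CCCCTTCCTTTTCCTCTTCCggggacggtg
Rps27: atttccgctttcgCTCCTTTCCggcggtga
Rps27l: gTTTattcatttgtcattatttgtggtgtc
Rpl22: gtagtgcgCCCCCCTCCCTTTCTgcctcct
Rpl22l1: gCTCCgtggatatccggttccgagttgcgc
Rpl7l1: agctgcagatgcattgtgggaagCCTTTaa

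Of the 68 names, 53 had a window, and 37 of these (69.8%) held a C and T run of at least 7 bases on the gene's strand. Among all 33469 promoters in the table, 5986 (17.9%) held such a run in the same 30 bases. The median longest run was 9 bases in the members and 4 bases in all promoters. The 3 paralogs printed above held none of that length. Another paralog, Rps4y2, held a run of 8 bases, while its partner Rps4x had a longest run of 5 bases. Of genes not printed, Rpl41, among the largest rises below, had a longest run of 3 bases. Rpl17 and Rpl21, with a row each among the smallest changes, had 12 and 9 bases. This describes letters around an annotated start, not a measured start of transcription.

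Before the comparisons, 2 facts about the libraries bear on these genes. Total counts per library ranged from 19496602 to 43468509. The library +PBS-4w replicate 1 stood apart from the other 3 of its group, with summed levels of 15 neuronal marker genes of 7920 CPM (counts scaled to a common library total) against 2207, 2349 and 3049, and of 9 fibroblast markers of 1341 CPM against 5424, 4358 and 5244. It had the highest level of its group for 68 of the 71 ribosomal protein genes and the lowest for 1, where over all 17990 genes tested 39.3% were highest and 39.7% lowest in it. Counts of members called in comparisons that use +PBS-4w, and in the 3-week average, are therefore also given without it. DEG counts, counts of non-overlapping groups and most single-gene values are given only with it. For refits with libraries left out or with other settings, the shares of all genes called are not given. Member counts from such refits show how stable a count is and are not read as results about the members. The libraries numbered 1 also tended to share a direction. In all 8 groups replicate 1 held the highest level of 8 members, Rpl31, Rpl36a, Rpl37a, Rps14, Rps16, Rps21, Rps27 and Rps28, against 1.87% of all genes tested, and 0 members were lowest in it throughout.

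The 71 genes took up 0.958% ± 0.0338 of all counts (SD, n = 4) in Intact and 2.74% ± 0.262 (n = 3) in sub-SCI. In the +PBS groups the share was 2.17% ± 0.263 (n = 3) at 1 wpt, 1.95% ± 0.305 (n = 2) at 2 wpt and 2.21% ± 0.492 (n = 4) at 4 wpt. In the +MSC groups it was 1.92% ± 0.0919 (n = 3), 1.58% ± 0.069 (n = 3) and 1.84% ± 0.123 (n = 4) at the same weeks. No injured library came near the Intact range of 0.928% to 1.01%, the lowest being a +MSC-2w library at 1.51%. At 4 wpt +PBS replicate 1 was at 2.93%, and the other 3 +PBS libraries lay between 1.83% and 2.04%. All 4 +MSC-4w libraries, at 1.72% to 2.01%, lay within or below the range of those 3.

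**Figure D1:**
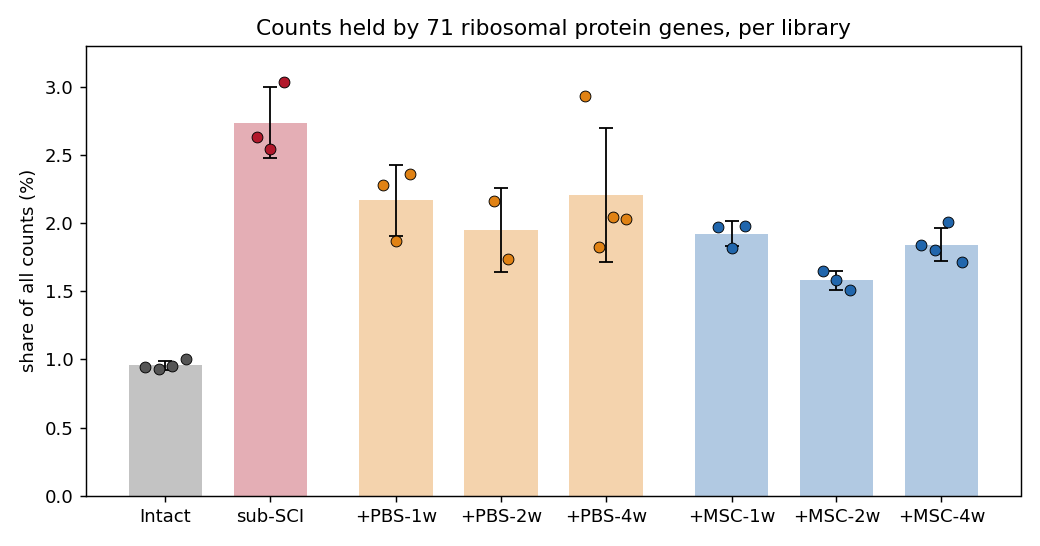
Share of all counts held by the 71 ribosomal protein genes, in percent on a linear axis from 0; each point is 1 library, bars are group means and error bars are SD. The Intact libraries sit near 0.958%, sub-SCI libraries between 2.54% and 3.03%, and +PBS-4w replicate 1 stands at 2.93% above the rest of its group.

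Per base of annotated gene length, the genes differed widely in level. These lengths ran from 246 to 5151 bases among the members, and their part in the ranking was not tested. Averaged over the 26 libraries, Rpl41, which encodes the shortest ribosomal protein, had the highest level at 1057 CPM per kilobase of that length. Rplp1 at 827 and Rplp0 at 748 CPM per kilobase followed. The median member had 377 CPM per kilobase and the lowest, Rps4y2, a paralog of Rps4x, 9.82. By mean count, Rplp0 (22782), Rpsa (17251) and Rpl3 (16786) were the most read. These limits apply to all of these levels. Ribosomal protein genes have many near-identical processed copies in the genome, and how reads that map to several places were counted is not given in the sources used here. Reads that aligned to the human genome had been removed before counting, so for sequences alike in both species only what remained was counted, and its part in the levels was not tested.

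The 19 matching genes with under 100 counts in 1 or more libraries are a part of that picture. Rpl10a and Rpl23a were listed at 0 counts in every library, although every cell uses their proteins, and 11 of the 19 had a mean count under 50, so their rows say little about the transcripts. The nearest rows outside the threshold were Rps9, with 93 counts in its lowest library, Rpl8 with 74 and Rps6 with 67, and the nearest inside were Rps4y2 with 100 and the Rpl7a row ENSRNOG00000049097 with 125. Rps6, whose protein is the substrate of the S6 kinases, had 3.07 to 4.69 CPM in Intact and 11.4 to 18.4 CPM in sub-SCI, without overlap (log2 fold change 1.96 ± 0.28 SE, adjusted p = 3.91e-06, edgeR quasi-likelihood F test, Benjamini-Hochberg). Of the 14 matching genes outside the threshold that could be tested, 7 were higher and 1 lower in sub-SCI (50% and 7.14%, against 30.5% and 30.9% of all genes). The lower one was Rpl3l, the muscle paralog of Rpl3, with at most 3.003 CPM in any library. That value was Intact replicate 4. The other Intact libraries were at 0.27 to 0.73 CPM and sub-SCI at 0.11 to 0.20 CPM, all near 0.

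The comparison of sub-SCI with Intact asks what the injury had changed by the time of transplantation. Ribosomal protein mRNA was higher after injury almost throughout. With edgeR's quasi-likelihood F test and p-values adjusted over all genes (Benjamini-Hochberg, as for each adjusted p here), 69 of the 71 genes were higher and 0 lower at an adjusted p under 0.05, where 30.5% of all genes tested were higher and 30.9% lower. The median log2 fold change was 1.43, or 2.69-fold, and the middle of the distribution was narrow, from 1.23 to 1.62 between the quartiles, against a median of -0.02 and quartiles of -0.84 and 0.74 for all genes tested. With the stricter limits of an adjusted p under 0.01 and a change above 2-fold (DEG), 62 members were higher, where 16.6% of all genes were. In 68 members every sub-SCI library lay above every Intact library, as in 32.9% of all genes. The 40S genes had a median of 1.53 and the 60S genes of 1.40, a difference that was not tested.

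The stalk is the flexible arm of the 60S subunit that recruits elongation factors, and its base protein Rplp0 was the most read gene of the set. Rplp0 was at 272, 328, 331 and 349 CPM in the 4 Intact libraries and at 1225, 1292 and 1452 CPM in sub-SCI. All sub-SCI libraries were more than 3 times the highest Intact library, and the change was 4.14-fold (log2 2.05 ± 0.15, adjusted p = 3.93e-10). Its partner Rplp1 rose from 170 to 226 CPM in Intact to 533 to 702 CPM (log2 1.61 ± 0.14, adjusted p = 3.96e-09). Rplp2, the third stalk gene, held 28 counts in its lowest library and so is not a member. It was at 1.30 to 2.15 CPM in Intact and 4.71 to 6.27 CPM in sub-SCI. The groups did not overlap, but the 2.98-fold change did not pass (adjusted p = 0.0823). The model shares 1 spread over all groups, and +PBS-4w replicate 4, outside this comparison, was at 88.2 CPM for Rplp2. The part of that library in this result was not tested. Rpsa, the 40S protein that also serves as a laminin receptor, was at 310 to 336 CPM and at 890 to 1049 CPM (log2 1.56 ± 0.16, adjusted p = 4.16e-08).

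Among the 60S genes, Rpl12, whose protein sits at the root of the stalk, was at 89.8, 93.4, 91.6 and 92.2 CPM in Intact and at 335, 467 and 423 CPM in sub-SCI. The Intact libraries were almost level while the sub-SCI libraries spread, and the log2 change was 2.15 ± 0.20 (adjusted p = 8.28e-09). Rpl41 was at 176 to 237 CPM and 634 to 932 CPM (log2 2.01 ± 0.22, adjusted p = 1.14e-07). Rpl10, which completes the site where subunits join, was at 215 to 233 CPM and 658 to 783 CPM, and had the smallest adjusted p of the 60S genes (log2 1.65 ± 0.10, adjusted p = 4.66e-11). Rpl3, which lines the catalytic center, had a smaller estimate, with 361 to 381 CPM in Intact and 758 to 903 CPM in sub-SCI (log2 1.13 ± 0.10, adjusted p = 3.2e-09). Rpl5 and Rpl11, which form a particle with the 5S ribosomal RNA and can bind the p53 regulator Mdm2, had log2 changes of 1.33 ± 0.12 and 1.47 ± 0.14 (adjusted p = 8.9e-09 and 1.79e-08).

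Among the 40S genes, Rps2, a protein at the channel through which mRNA enters, was at 196, 222, 199 and 212 CPM in Intact and at 827, 866 and 1068 CPM in sub-SCI. It had the smallest adjusted p of the 71 genes (log2 2.15 ± 0.13, adjusted p = 4.54e-11), and its groups lay far apart. Rps19, the gene most often mutated in Diamond-Blackfan anemia, was at 17.2, 23.6, 23.0 and 21.8 CPM and at 62.4, 73.3 and 80.4 CPM (log2 1.75 ± 0.19, adjusted p = 7.5e-08). Rps4x was at 150 to 160 CPM and 456 to 575 CPM (log2 1.70 ± 0.13, adjusted p = 6.47e-10). The groups did not overlap for any of these 3 genes.

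The paralogs lay at both ends of the range of changes. Rps27l, a close copy of Rps27 and a known p53 target, was at 10.8, 9.76, 7.12 and 10.9 CPM in Intact and at 54.8, 52.7 and 36.3 CPM in sub-SCI. It had the largest change of the 71 genes, 4.97-fold (log2 2.31 ± 0.21, adjusted p = 9.48e-09). Its partner Rps27 was at 22.8, 14.3, 13.4 and 13.0 CPM and at 69.9, 38.1 and 37.7 CPM, with replicate 1 the highest in both groups and a larger error (log2 1.62 ± 0.44, adjusted p = 0.00284). The difference between the fold changes of Rps27l and Rps27 was not tested.

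Rpl22l1, which can take the place of Rpl22 in the ribosome, was at 45.9, 34.3, 32.6 and 33.0 CPM in Intact and at 51.9, 44.6 and 63.9 CPM in sub-SCI, with 1 Intact library above the lowest sub-SCI library (log2 0.55 ± 0.23, adjusted p = 0.0383). The call was lost without Intact replicate 3 or 4 or without sub-SCI replicate 1 or 3 (adjusted p = 0.0874, 0.0844, 0.0632 and 0.181). Rpl22 itself was at 48.5 to 51.7 CPM and at 151 to 179 CPM (log2 1.72 ± 0.18, adjusted p = 4.38e-08). Rpl7l1, a paralog of Rpl7 with a role in ribosome assembly, was at 33.5, 28.4, 29.1 and 32.2 CPM and at 35.5, 35.2 and 41.9 CPM, the smallest change of the set (log2 0.28 ± 0.10, adjusted p = 0.0173), and it was not called without sub-SCI replicate 3 (adjusted p = 0.129). Rpl7 was at 217 to 269 CPM and 617 to 786 CPM (log2 1.44 ± 0.13, adjusted p = 6.48e-09). Rps4y2 was at 5.46, 5.82, 10.9 and 9.05 CPM and at 15.4, 10.7 and 10.4 CPM, with overlapping groups, and did not pass (log2 0.64 ± 0.38, adjusted p = 0.155). The changes of a gene and its paralog were not tested against each other, and reads shared by near-identical copies leave each such row uncertain. Of the other paralog rows, Rpl10l was at 2.34 to 4.67 CPM in Intact and 3.22 to 7.18 CPM in sub-SCI, while Rpl39 and Rpl39l stayed under 0.6 CPM.

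**Figure D2:**
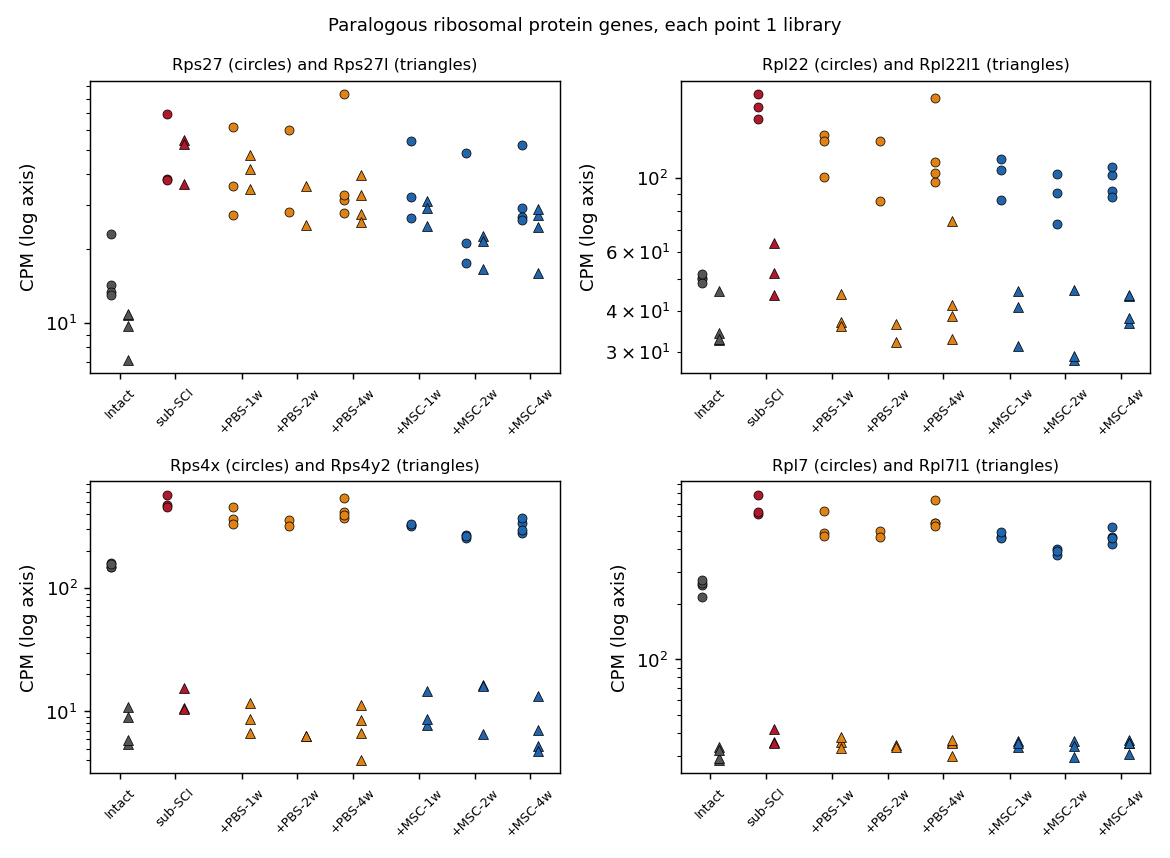
Levels of 4 ribosomal protein genes (circles) and their paralogs (triangles) in CPM on log axes, each point 1 library, by group. Rps27l is highest in sub-SCI at 36.3 to 54.8 CPM, while Rpl7l1 stays between 28.4 and 41.9 CPM in every group. For Rps4y2 the Intact and sub-SCI libraries overlap.

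Besides Rps4y2, only Rpl17 was not called after injury at an adjusted p under 0.05. Rpl17 was at 88.1, 131, 146 and 142 CPM in Intact and at 206, 195 and 218 CPM in sub-SCI, so the groups did not overlap, yet the gene did not pass (log2 0.70 ± 0.41, adjusted p = 0.144). Its spread within groups was wide elsewhere, with 112, 270 and 368 CPM in +MSC-1w. The Rpl21 row ENSRNOG00000029410 was the next lowest in change, at 65.4 to 70.2 CPM and 99.2 to 131 CPM (log2 0.83 ± 0.18, adjusted p = 0.000336). Rpl21 stands on 4 rows in the table, of which 3 are members.

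The members with windows were divided by the C and T run shown above. A run counted anywhere in the window, and in some members, such as Rpsa and Rps3, it lay wholly before the annotated start. Rows with the same name shared 1 window. The 40 rows with a run of at least 7 bases had a median log2 change of 1.40 in sub-SCI (range 0.64 to 2.15), and the 16 rows without one had 1.39 (range 0.28 to 2.31). Both the largest change (Rps27l) and the smallest (Rpl7l1) were in rows without such a run. The starts are annotated and not measured, so this division cannot separate mRNAs with a TOP tract from those without one. No conclusion about the tract is drawn from it.

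Next, injured rats given PBS were compared with Intact at each week, which asks how long the difference lasted. These comparisons share the Intact libraries with each other and with the comparison above. At 1 wpt 66 members were higher and 0 lower (26.7% of all genes higher, 26.4% lower), with a median log2 change of 1.02 against -0.007 for all genes. At 2 wpt 65 were higher and 0 lower (19.7% of all genes higher, 17% lower), with a median of 0.92 against 0.004. At 4 wpt 68 were higher and 0 lower (28.6% of all genes higher, 23.9% lower), with a median of 1.11 against 0.051. The stricter DEG limits left 38, 18 and 50 members (13.5%, 8.84% and 13.3% of all genes). Groups did not overlap in 66, 67 and 64 members, against 28.5%, 31.1% and 22.4% of all genes.

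The weeks with thin groups need their single libraries. At 4 wpt the median fell to 0.92 without +PBS-4w replicate 1, and 67 members remained called. At 2 wpt, with 2 libraries, leaving out +PBS-2w replicate 1 gave 40 called members and a median of 0.73. Across all 22 injured libraries, +MSC included, 59 of the 71 members lay above every Intact library, as did 10.3% of all genes tested. Those that did not were Rpl17, Rpl22l1, Rpl30, Rpl31, Rpl36a, Rpl7l1, Rps10l1, Rps19l2, Rps21, Rps27, Rps4y2 and the Rpl21 row ENSRNOG00000032803.

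Rplp0 was at 956, 940 and 1040 CPM at 1 wpt, at 904 and 782 CPM at 2 wpt and at 1336, 803, 859 and 827 CPM at 4 wpt, all above the Intact maximum of 349 CPM. The change against Intact was 3.06-fold at 1 wpt, 2.64-fold at 2 wpt and 2.99-fold at 4 wpt (adjusted p = 1.69e-08, 1.05e-06 and 1.66e-08). Rps27l was at 42.0, 34.7 and 47.5 CPM, then at 35.7 and 24.97 CPM, then at 39.4, 27.5, 25.6 and 32.8 CPM, again all above Intact (4.30-fold, 3.14-fold and 3.25-fold). Rpl22l1 was at 36.0 to 44.96 CPM, 32.2 to 36.5 CPM and 32.9 to 74.2 CPM in the same groups. It overlapped Intact at every week and was not called (adjusted p = 0.705, 0.827 and 0.154).

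Directly compared, +PBS-4w was lower than sub-SCI in 13 members and higher in 0 (11.6% of all genes lower, 13.4% higher), with a median log2 difference of -0.31 against 0.059 for all genes. Without +PBS-4w replicate 1, 57 members were lower and the median was -0.57. The share of all genes lower in that refit is not given. The rise from 13 to 57 is therefore not read as particular to these members. Without sub-SCI replicate 3, 6 were lower, and without +PBS-4w replicate 2, 3 or 4 it was 7, 8 and 7. Rpl12 had the largest called difference, with 335, 467 and 423 CPM in sub-SCI and 226, 190, 213 and 205 CPM in +PBS-4w (log2 -0.97 ± 0.19, adjusted p = 0.00101). All 4 +PBS-4w libraries lay below the 3 sub-SCI libraries for this gene. Rps2 had the smallest adjusted p (log2 -0.73 ± 0.13, adjusted p = 0.000395). The members called ranged from -0.97 to -0.38.

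**Figure D3:**
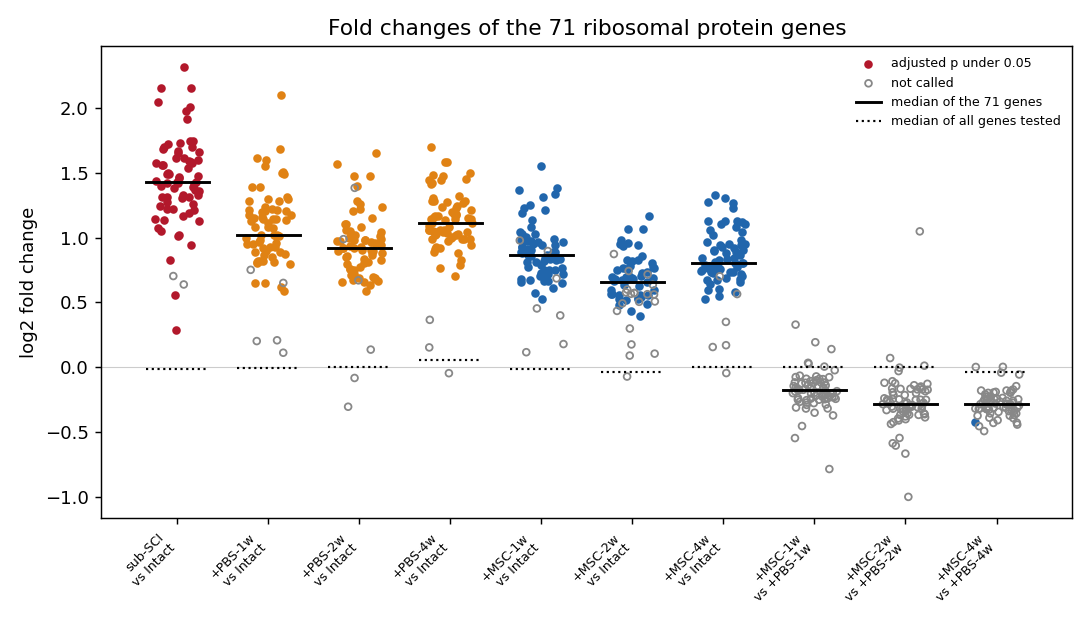
log2 fold changes of the 71 ribosomal protein genes in 10 comparisons; filled points are genes with an adjusted p under 0.05, open points are not, lines are medians of the 71 genes and dotted lines are medians of all genes tested. The medians are 1.43, 1.02, 0.92 and 1.11 for the injured groups without cells against Intact and lie between -0.18 and -0.29 for +MSC against +PBS.

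The comparison of +MSC with +PBS at the same week asks what the transplanted cells changed. Within single weeks almost none of these genes passed. At 1 wpt 0 members were called (0.0389% of all genes higher, 0.0611% lower), 4 had an unadjusted p under 0.05 (17.9% of all genes did), and DESeq2 on the groups compared called 3. At 2 wpt 0 were called (0% of all genes in either direction), 11 had an unadjusted p under 0.05 (12.3% of all genes), and DESeq2 called 2 on the groups compared and 1 on all libraries. At 4 wpt 1 was lower and 0 higher (0.928% of all genes lower, 3.07% higher), and 17 had an unadjusted p under 0.05 (22.5% of all genes). The counts of 4, 11 and 17 of 71 lie below or near these shares. The medians were -0.18, -0.28 and -0.29, against -0.002, 0.002 and -0.039 for all genes tested. The estimates were below 0 for 65, 68 and 69 of the 71 genes, against 9039, 8944 and 9805 of all 17990 genes tested. The members moved closely together over the libraries, so their estimates are not independent of each other.

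The gene called at 4 wpt was Rps4x. It was at 541, 372, 419 and 395 CPM in +PBS-4w and at 279, 339, 369 and 300 CPM in +MSC-4w (log2 -0.42 ± 0.12, adjusted p = 0.0478). No +MSC-4w library reached the lowest +PBS-4w library, but the call was lost on leaving out any of 20 of the 26 libraries in turn. Non-overlapping groups with +MSC lower were seen in 16 members at 1 wpt, 31 at 2 wpt and 5 at 4 wpt, against 11.6%, 18.4% and 4.47% of all genes. With +MSC higher there were 0 members at 1 wpt, 1 at 2 wpt and 0 at 4 wpt, against 15.3%, 18.6% and 6.08% of all genes. The 1 was Rps4y2, at 6.34 and 6.31 CPM in +PBS-2w and 6.56, 16.5 and 16.2 CPM in +MSC-2w, which did not pass (adjusted p = 0.379).

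The weekly differences depended on single +PBS libraries. Without +PBS-4w replicate 1 the median at 4 wpt was -0.089 and 0 members were called. Without +PBS-2w replicate 1 the median at 2 wpt was -0.089, and without replicate 2 it was -0.42. At 1 wpt the median was -0.29 without +PBS-1w replicate 2 and -0.11 without replicate 3, and 2 members were called without +PBS-4w replicate 1.

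Averaged over the 3 weeks in the same model, +MSC was lower than +PBS in 23 members and higher in 0 (10.9% of all genes lower, 12.3% higher). The median log2 difference was -0.24, or 0.845-fold, against -0.017 for all genes, and 47 members had an unadjusted p under 0.05 (36.2% of all genes). Leaving out 1 library moved the count from 4 (without +PBS-2w replicate 1) to 36 (without +PBS-4w replicate 1), with medians from -0.30 to -0.20. The count was 11 without +PBS-1w replicate 3, 12 without +MSC-1w replicate 2 and 14 without +MSC-4w replicate 4. A test of whether the difference varied among the weeks called 0 members and 0% of all genes by edgeR, with 1 member at an unadjusted p under 0.05 (2.67% of all genes) and 0 by DESeq2.

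By role, the stalk genes Rplp0 and Rplp1 were lower by the 3-week average (log2 -0.30 ± 0.09 and -0.28 ± 0.09, adjusted p = 0.0233 and 0.0224). Without +PBS-2w replicate 1 neither was called (adjusted p = 0.0897 and 0.0841), nor was Rplp1 without +PBS-1w replicate 3 (adjusted p = 0.0547). Among the 40S genes Rps4x had the smallest adjusted p of the 71 (log2 -0.34 ± 0.08, adjusted p = 0.00516), and Rps2 followed (log2 -0.34 ± 0.08, adjusted p = 0.00644). Among the 60S genes Rpl10 was lower (log2 -0.26 ± 0.06, adjusted p = 0.00658), as was Rpl11 (log2 -0.26 ± 0.09, adjusted p = 0.0368). The call of Rpl11 was lost without any of 10 single +MSC or +PBS libraries, with adjusted p from 0.0501 to 0.131. Rpl5, its partner in the 5S particle, had -0.20 ± 0.08 (adjusted p = 0.0617), and Rpsa had -0.22 ± 0.10 (adjusted p = 0.111). No called member differed by more than 1.5-fold.

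Rps27l had the largest called difference of the 71. It was at 31.1, 24.7 and 29.1 CPM in +MSC-1w, at 22.5, 21.4 and 16.5 CPM in +MSC-2w and at 16.0, 27.2, 29.0 and 24.5 CPM in +MSC-4w. At 1 and 2 wpt every +MSC library lay below every +PBS library, and at 4 wpt the groups overlapped (3-week log2 -0.50 ± 0.13, adjusted p = 0.00866). Without +PBS-2w replicate 1 its adjusted p was 0.0594. Rps19 was at 39.1, 37.1 and 38.1 CPM, then at 38.0, 32.3 and 29.4 CPM, then at 34.2, 37.8, 41.2 and 34.7 CPM with cells. Without cells it was at 55.5, 44.1 and 57.0 CPM, at 43.4 and 40.5 CPM, and at 81.5, 39.8, 40.9 and 45.9 CPM. The 2 sets overlapped only at 4 wpt (3-week log2 -0.43 ± 0.12, adjusted p = 0.0116).

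A lower estimate alone did not make a call. Rps10l1, a row named for a copy of Rps10, had the lowest value of the 71 (log2 -0.72 ± 0.29, adjusted p = 0.0755). It was at 34.3, 14.2 and 14.95 CPM in +MSC-2w against 42.0 and 42.8 CPM in +PBS-2w, but at 15.2 to 68.4 CPM within +PBS-4w alone. Rps27 had -0.38 ± 0.27 (adjusted p = 0.324), with replicate 1 the highest library of every group. At the other end, Rpl7l1 had -0.02 ± 0.06, Rpl22l1 had -0.06 ± 0.14 and the Rpl7a row ENSRNOG00000049097 had -0.08 ± 0.10 (adjusted p = 0.871, 0.798 and 0.607), while Rps4y2 had 0.41 ± 0.24 (adjusted p = 0.226). The genes nearest to 0 here included the paralogs with the smallest changes after injury.

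With the transplanted cells the genes still stood above Intact. In +MSC-1w 64 members were higher and 0 lower (18.3% of all genes higher, 14.8% lower), in +MSC-2w 51 and 0 (12.7% and 6.44%), and in +MSC-4w 65 and 0 (17.7% and 13.6%). The medians were 0.87, 0.66 and 0.81, against -0.014, -0.035 and -0.003 for all genes. These groups share the Intact libraries with the +PBS comparisons, whose medians were 1.02, 0.92 and 1.11. The DEG limits left 12, 2 and 11 members (7.87%, 5.6% and 7.25% of all genes).

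**Figure D4:**
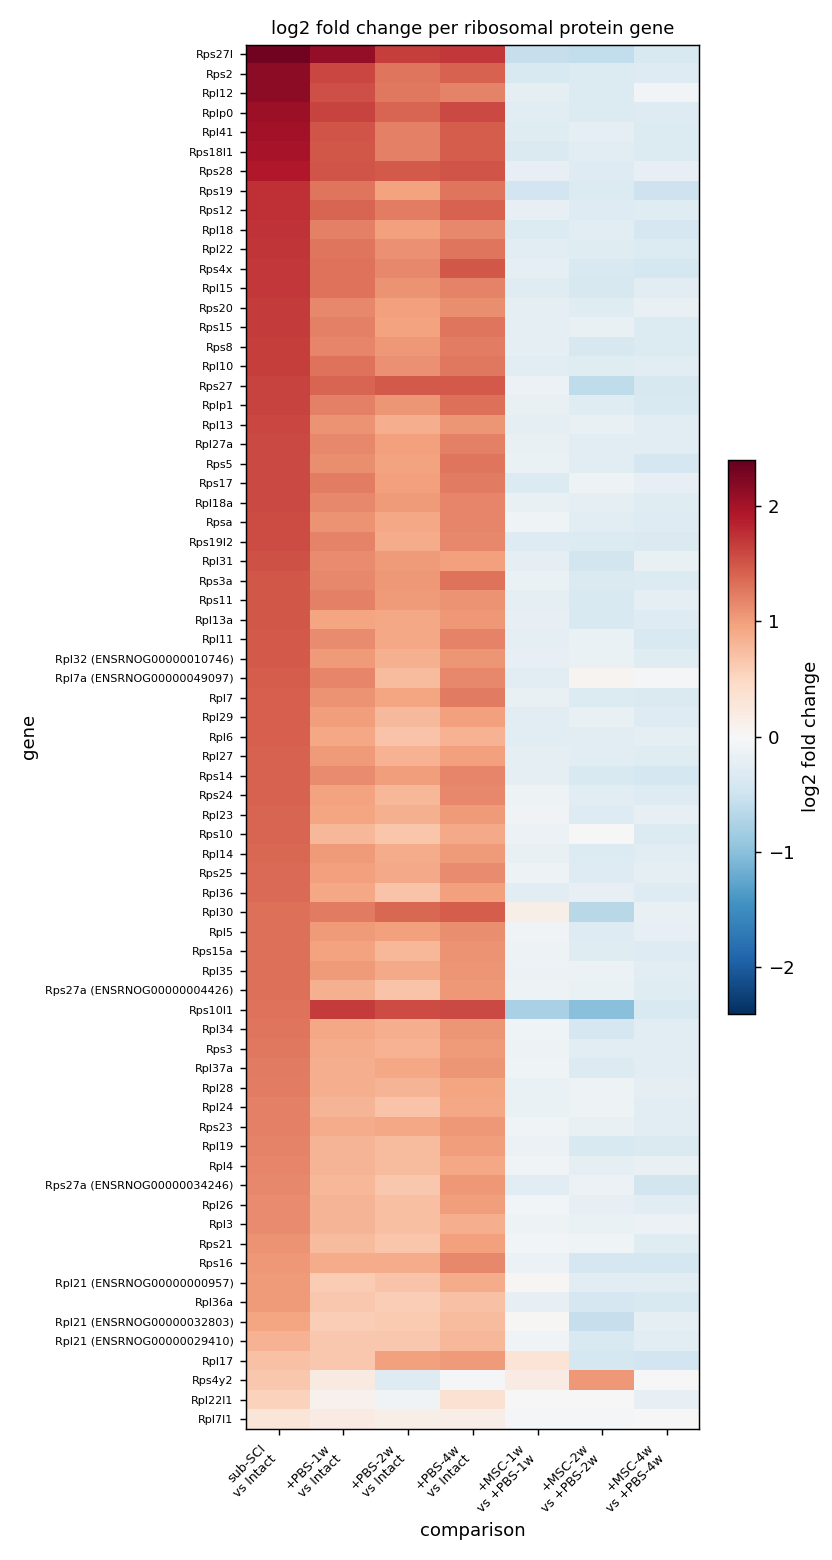
log2 fold change of each of the 71 genes (rows, ordered by sub-SCI against Intact) in 7 comparisons (columns), red for higher and blue for lower. Nearly all rows are red against Intact and pale blue for +MSC against +PBS, with Rps27l at the top (2.31) and Rpl7l1 at the bottom (0.28).

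As a description over the 26 libraries, which share the injury contrast, the members moved closely together. The log2 CPM of a member correlated with the mean of the other members at a median Pearson's r of 0.958, and 59 of the 71 had an r above 0.9. The lowest were Rps4y2 (0.117), Rpl17 (0.438) and Rpl7l1 (0.564). Outside the name rule, the genes most like the members' mean were LOC100362830 (r = 0.991), AC094217.1 (0.975) and LOC103690821 (0.974), for which the files give only these names.

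Within groups, the highest library of a member was at a median of 1.82 times the lowest in the group where it spread most. 5 members reached 3 times or more. Rpl30, chosen here after its values were seen, spread most, from 43.8 to 294 CPM in +PBS-4w, and in sub-SCI it was at 192, 45.7 and 131 CPM, so that 1 injured library lay just below the Intact range of 45.9 to 54.4 CPM while the other 2 lay well above it (log2 1.33 ± 0.51, adjusted p = 0.0278).

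The other genes of protein synthesis give the setting of these changes, in lists chosen with earlier results of these data known. Their counts in sub-SCI stand beside the 30.5% of all genes that were higher and the 30.9% that were lower. Rack1 and Fau, which encode ribosomal proteins outside the name rule, were higher in sub-SCI, with log2 changes of 1.58 ± 0.15 and 1.08 ± 0.19 (adjusted p = 1.01e-08 and 5.23e-05). Neither was called for the 3-week average of +MSC against +PBS (log2 -0.24 ± 0.09 and -0.22 ± 0.12, adjusted p = 0.0585 and 0.2). Other mRNAs of the TOP class were higher in 7 of 7, with a median of 1.05. Pabpc1, the poly(A)-binding protein, was at 122 ± 13.1 CPM in Intact (n = 4) and 493 ± 71.7 CPM in sub-SCI (n = 3) (log2 2.02 ± 0.14, adjusted p = 2.28e-10). Tpt1, a growth-related calcium-binding protein, and Npm1, a nucleolar histone chaperone, had 1.53 ± 0.12 and 1.21 ± 0.14.

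Elongation factors, which move the ribosome along the mRNA, were higher in 5 and lower in 1 of 7 (71.4% and 14.3%). Eef1a1, which delivers tRNA to the ribosome in most cells, was at 1631 ± 211 CPM in Intact (n = 4) and 4216 ± 609 CPM in sub-SCI (n = 3) (log2 1.37 ± 0.13, adjusted p = 9.31e-09). Eef1g, its exchange factor subunit, had 1.13 ± 0.11, and Eef2, the translocase, 0.60 ± 0.10. The lower gene was Eef1a2, the form of that protein found in neurons and muscle, named here after its values were seen. It was at 850 ± 78.2 CPM and at 174 ± 95.4 CPM (log2 -2.29 ± 0.52, adjusted p = 0.000603), and it was higher with +MSC over the 3 weeks (log2 0.88 ± 0.30, adjusted p = 0.0382).

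Initiation factors, which bring the 40S subunit to the mRNA, had smaller estimates, with 14 higher and 1 lower of 26 (53.8% and 3.85%) and a median of 0.36. The helicase gene Eif4a1 had 1.42 ± 0.11 (adjusted p = 1.02e-09), and the Eif3 subunits Eif3m and Eif3d had 0.73 ± 0.09 and 0.73 ± 0.10. RNA polymerase I and its factors, which make ribosomal RNA, had 9 higher (64.3%) and 0 lower of 14 and a median of 0.44, with Cd3eap (1.63 ± 0.14), Taf1c (0.95 ± 0.12) and Polr1d (1.03 ± 0.14) the smallest in adjusted p. Ribosome assembly factors had 20 higher and 4 lower of 44 (45.5% and 9.09%) and a median of 0.30. Examples were Pes1 (0.70 ± 0.08), Fbl, the rRNA methylase fibrillarin (1.38 ± 0.21), and the helicase gene Ddx18 (0.98 ± 0.17).

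Genes that control ribosomal protein synthesis had 4 higher and 4 lower of 13, or 30.8% each way, close to the shares of all genes. Eif4ebp1, a repressor of cap-dependent translation and a target of mTOR, was at 5.48 ± 0.99 CPM in Intact (n = 4) and 50.3 ± 12.7 CPM in sub-SCI (n = 3) (log2 3.19 ± 0.17, adjusted p = 7.38e-12). Myc, a transcription factor that drives ribosome production, was at 4.69 ± 0.94 and 25.9 ± 4.29 CPM (log2 2.46 ± 0.21, adjusted p = 2.46e-09). Rptor, a subunit of the mTOR complex that senses nutrients, was lower (log2 -0.73 ± 0.08, adjusted p = 8.88e-08). Over the 3 weeks Eif4ebp1 was lower with +MSC (log2 -0.67 ± 0.10, adjusted p = 0.000426), Rptor was higher (log2 0.16 ± 0.05, adjusted p = 0.0239), and Myc had -0.22 ± 0.12 (adjusted p = 0.211).

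The mitochondrial ribosome has its own proteins, encoded by other nuclear genes. Of 75 of these genes tested, 15 were higher and 8 lower in sub-SCI (20% and 10.7%, both under the shares of all genes), with a median of 0.07, where the cytosolic set had 69 of 71 higher and a median of 1.43. Mrpl52 had 0.98 ± 0.15 (adjusted p = 7.15e-06), Mrpl23 0.77 ± 0.19 and Mrpl32 0.55 ± 0.14. At 4 wpt in +PBS 6 of the 75 were higher and 6 lower, with a median of -0.04. Of all genes, 28.6% were higher and 23.9% lower there. The 3-week average of +MSC against +PBS called 1 higher and 1 lower, with a median of 0.03. Over all genes it called 12.3% higher and 10.9% lower. Over the same average the other lists had 1 higher and 1 lower elongation factor of 7, 0 and 3 of 26 initiation factors, 0 and 1 of 7 TOP genes, 0 and 3 of 14 polymerase I genes, 2 and 1 of 44 assembly factors, and 1 and 1 of 13 growth control genes.

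**Figure D5:**
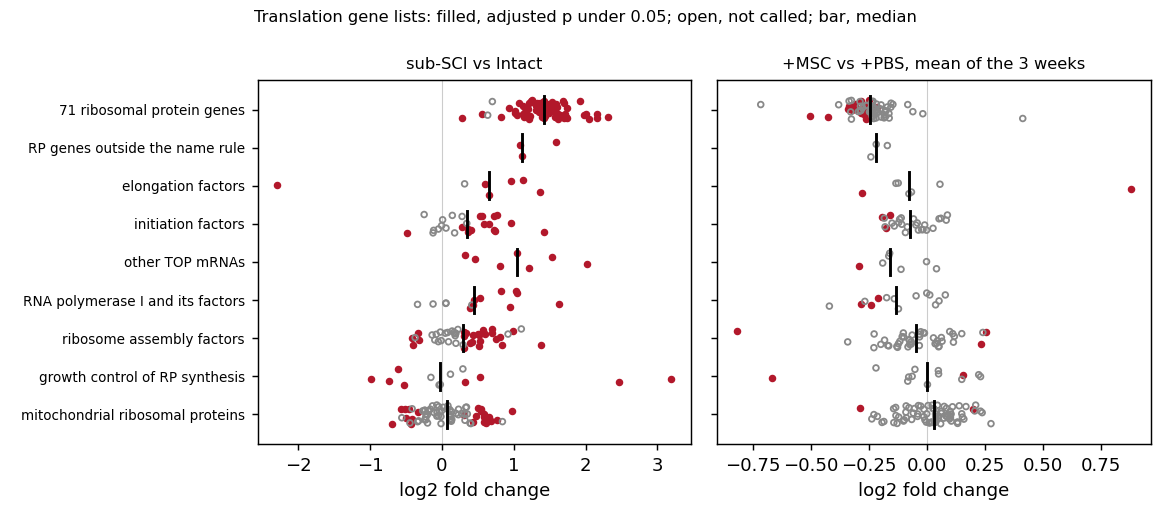
log2 fold change of each gene (points) in 9 lists of protein synthesis genes, for sub-SCI against Intact and for the 3-week average of +MSC against +PBS; filled points have an adjusted p under 0.05 and bars are list medians. In sub-SCI the medians run from 1.43 for the 71 ribosomal protein genes to -0.02 for growth control genes.

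Markers of cell types moved in the same comparisons, and their part in the ribosomal protein changes was not tested. Of all genes tested, 30.5% were higher and 30.9% lower in sub-SCI. All 13 microglia and macrophage markers were higher in sub-SCI (median log2 3.63), with a summed level of 394 to 651 CPM in Intact and 4413 to 6163 CPM in sub-SCI. The 3 with the smallest adjusted p were Cd68 (log2 7.41), Tyrobp (4.45) and Cd14 (3.90). All 9 fibroblast markers were higher (median 3.78, summed level 255 to 1411 CPM and 8218 to 19860 CPM), as were all 9 markers of dividing cells (median 3.46, 20.3 to 59.6 CPM and 325 to 612 CPM). Of 11 lymphocyte markers 8 were higher and 1 lower (2.95 to 11.1 CPM and 192 to 213 CPM). All 15 neuronal markers were lower (median -2.93), with 12450 to 14930 CPM in Intact and 622 to 2822 CPM in sub-SCI. So were 9 of 10 oligodendrocyte markers (51740 to 58490 CPM and 17770 to 36210 CPM) and 6 of 10 astrocyte markers (11780 to 13490 CPM and 6237 to 12280 CPM). Of 3 endothelial markers tested, Cdh5 was higher, and Cldn5, a defining one, was listed at 0 in every library. In Intact the markers of oligodendrocytes, neurons and astrocytes, the cells of the labelled tissue, had the highest sums.

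For the 3-week average of +MSC against +PBS, 14 of 15 neuronal markers were higher (median 1.01), all 9 fibroblast markers lower (median -1.21) and 6 of 13 microglia and macrophage markers lower (median -0.35). Of all genes tested, 12.3% were higher and 10.9% lower. Of the dividing cell markers 0 were called (median -0.25), and 1 was lower among the lymphocyte and 1 among the endothelial markers. Oligodendrocyte markers had 1 of 10 higher and astrocyte markers 2 of 10. In +PBS-4w replicate 1, ribosomal protein mRNA was highest in its group. Its microglia and macrophage markers summed to 3969 CPM, against 2421 to 3710 CPM in the other 3 libraries. Also higher there were dividing cell markers (142 CPM against 56.2 to 87.7 CPM) and lymphocyte markers (39.1 CPM against 19.1 to 27.4 CPM). So were oligodendrocyte markers (29380 CPM against 17710 to 22020 CPM) and astrocyte markers (24670 CPM against 15460 to 21350 CPM). Fibroblast markers (1341 CPM against 4358 to 5424 CPM) and endothelial markers (83.4 CPM against 192 to 284 CPM) were lower there. Its neuronal sum of 7920 CPM lay within the +MSC-4w range of 7593 to 9431 CPM.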

How the data were processed

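RNA was measured in 26 rat spinal cord libraries, grouped by their labels. Per the labels and the study's methods, the authors trimmed poly(A) RNA reads (Trim Galore 0.5.0), discarded those aligning to the human genome GRCh38, aligned the rest to Rnor6 (HISAT2 2.1.0), kept proper pairs (SAMtools 1.9) and counted them per gene (featureCounts 1.6.4). The deposited values are raw counts, whole numbers without normalization. Annotation release, strand setting and treatment of multi-mapped reads are not given in the sources used here. The 26 single-library files equalled the joint table.

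Counts were analyzed in R 4.3.3 with edgeR 4.0.16: filterByExpr (17990 genes), TMM, 1 quasi-likelihood model of 8 groups, Benjamini-Hochberg adjustment over all genes tested. The spread is thus shared, which the group of 2 needs. The 3-week average weights the weeks equally. CPM are TMM-scaled, and correlations used log2 CPM with a prior count of 2. A call is an adjusted p under 0.05, a DEG an adjusted p under 0.01 with an absolute log2 fold change above 1. Errors of log2 changes are standard errors from the model and those of levels are SD. Each member holds at least 100 counts in its lowest library.

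The members, lists and tests were chosen with earlier results of these data known. Genes named were stalk genes and Rpsa, paralogs, the 5 highest and 5 lowest changes in sub-SCI, the 4 highest and 4 lowest 3-week averages, the 3 most read, Rps6, Rpl5 and Rpl11, any member called against the members' common direction in sub-SCI (0 were), up to 3 called genes of each list and the 3 genes most like the members' mean, except where stated and except 1 gene that is not reported here. RefSeq promoter sequences (GRCr8) were matched by symbol. Alternatives were DESeq2 1.42.0, other scalings and filters, a replicate term and libraries left out in turn. The tests were tested on simulated data. Figures used matplotlib 3.10.9.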

Additional observations from a re-analysis of the deposited data

Results flagged for a closer look

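In groups of 4, 96 group values were examined for 1 library far from the other 3 by Dixon's test. They cover the members' share of counts, their mean log2 CPM and the ribosomal protein genes named by the rule above. Genes of the lists and those named for other reasons, such as Rpl30 and Rps21, were not examined. Chance alone flags about 1 of 20 groups, and 15 were found. The values come from the same libraries, in which most members moved together, so the flags are not independent of each other. In +PBS-4w, replicate 1 was far above the other 3 libraries for Rplp0 (1336 CPM), Rplp1 (658 CPM), Rpl26 (573 CPM), Rpl7 (739 CPM), Rps27 (83.6 CPM), the Rpl21 row ENSRNOG00000029410 (163 CPM) and Rps19 (81.5 CPM). In the same group replicate 4 was at 88.2 CPM for Rplp2, against at most 7.75 CPM in any of the other 25 libraries, and replicate 2 was at 2.15 CPM for Rpl3l. In Intact, replicate 1 was high for Rpl22l1 (45.9 CPM) and Rps27 (22.8 CPM), and replicate 4 for Rpl3l (3.003 CPM). In +MSC-4w, replicate 1 was high for Rps27 (52.3 CPM), and replicate 3 for Rpl12 (264 CPM) and for Rps6 (16.1 CPM). 7 of the 15 values belong to +PBS-4w replicate 1.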

How the results depend on the processing

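The members' median kept its direction in every comparison under all 13 settings other than leaving out libraries, and counts against Intact stayed within 1.5 times of those reported. Without TMM scaling the median of all genes for +MSC-1w against Intact was 0.09 in place of -0.01, and the members' 0.98 in place of 0.87. +MSC against +PBS was less stable. At 1 wpt DESeq2 on the groups compared called 3 members. At 2 wpt DESeq2 called 1 on all libraries and 2 on the groups compared. At 4 wpt DESeq2 called 4 on all libraries. Either tool on the 2 groups, no TMM, no filter on low counts and the libraries other than number 1 (chosen after the data were seen) called 0. The replicate block, a term for replicate 1, and members with at least 10 counts called 2. The 3-week average called 38 with DESeq2 on all libraries, 37 with at least 10 counts in every library, 37 with the replicate block and 5 in the libraries other than number 1. For +PBS-4w against sub-SCI the counts were 28 and 3 with DESeq2 on all libraries and on the groups compared, 1 with edgeR on those groups, 24 with median-of-ratios factors, 24 with the replicate block, 26 with the term for replicate 1 and 59 in the libraries other than number 1. In those libraries the medians were 0.72 (+PBS-2w against Intact), 0.89 (+PBS-4w against Intact), -0.066 (+MSC-4w against +PBS-4w) and -0.60 (+PBS-4w against sub-SCI). The cause of these shifts was not tested, and the shares of all genes called under these settings are not given.

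Leaving out 1 library at a time gave 65 to 69 members called in sub-SCI, 63 to 68 in +PBS-1w, 40 to 66 in +PBS-2w and 67 to 69 in +PBS-4w against Intact. For +MSC against +PBS it gave 0 to 2, 0 to 0 and 0 to 1 by week and 4 to 36 on average, and for +PBS-4w against sub-SCI 6 to 57. The medians ranged from 0.73 to 1.10 (+PBS-2w), 0.92 to 1.19 (+PBS-4w), -0.42 to -0.089 (+MSC-2w), -0.38 to -0.089 (+MSC-4w) and -0.57 to -0.21 (+PBS-4w against sub-SCI). The 3-week average turned positive for Rpl22l1 (0.014 without +PBS-4w replicate 1, lowest -0.148), Rpl7l1 (0.009 without +MSC-2w replicate 3, lowest -0.065) and Rpl17 (0.016 without +PBS-2w replicate 2, lowest -0.35). Of 1872 values of named members under alternatives, 1787 kept direction and side of the threshold, 50 became called, 32 lost their call and 3 turned. Deviations of same-numbered libraries from their group means correlated above 0.1 in 10 of 21 pairs over all genes (-0.078 to 0.25), but in 20 of 21 over the 71 members (0.037 to 0.867). The labels give no shared animal, batch or day and not every pair passed, so the numbers are not taken to pair the libraries, and the counts with the replicate block stand above.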
